A study of Mus musculus with 9 samples.

Results

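The genes described here are 5 Reg lectins (Reg1, Reg3a, Reg3b, Reg3g and Reg4), the immunoglobulin receptor Pigr, lipocalin 2 (Lcn2) and the serum amyloid A genes Saa1 and Saa2, which epithelia use to defend a mucosal surface. They were picked by symbol, 9 of the 23955 rows of a table of RNA-seq counts, with earlier results of these data known. The counts come from 9 mouse gut organoid samples in 3 groups of 3. MIN organoids were grown from normal tissue next to the adenomas of APCmin/+ mice, Adenoma organoids from the adenomatous polyps of APCmin/+ mice, and Sulindac organoids from such polyps with the NSAID sulindac added. All 3 groups thus carry the mutated Apc allele, and no wild-type sample is among them. Every culture received Noggin, EGF, bFGF, R-spondin1 and B27, and no cytokine or bacterial product is named in that medium. The age and strain of the mice, whether same-numbered cultures came from the same mouse, and the dose, duration and vehicle of the organoid treatment are not given in the sources used here. The study's text calls the samples biological replicates without tying them to mice, so the p-values below measure the spread between these cultures.

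Reg3 proteins are small secreted C-type lectins that bind the cell wall of bacteria, and Paneth cells and enterocytes release them into the gut lumen, while Reg4 is known from enteroendocrine and secretory cells. Pigr sits on the basolateral side of epithelial cells, binds polymeric IgA and IgM and carries them across to the lumen, where its outer part is released with the antibody. In tissue these genes are known targets of signals from immune cells and microbes, above all IL-22 and IL-6 acting through STAT3, and IL-17 and Toll-like receptors acting through NF-kB. Organoids hold epithelium and lack most of those cells.

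Reg3b, Reg3a, Reg1 and Reg3g lie in 1 run of neighbouring genes on chromosome 6, between Lrrtm1 and Gm20594, together with Reg3d and Reg2 in the order Reg3b, Reg3d, Reg3a, Reg2, Reg1, Reg3g. Reg4 lies apart from them on chromosome 3. Windows of the 250 bases before the start are shown for Reg3a, Reg3b, Reg3g and Reg4. The first 3 are the cluster genes described here that held a motif match, and Reg1, without one, is not shown. The sequences are RefSeq sequences of the GRCm38.p6 build, written 5′ to 3′ on the strand of the gene, with capitals marking motif matches on either strand. The submitters' processing notes name the mm9 build for the counts, so these positions were not joined to them. The windows are chr6:78380459-78380708 on the plus strand for Reg3a, chr6:78370635-78370884 on the plus strand for Reg3b, chr6:78468875-78469124 on the minus strand for Reg3g and chr3:98221906-98222155 on the plus strand for Reg4.
Reg3a: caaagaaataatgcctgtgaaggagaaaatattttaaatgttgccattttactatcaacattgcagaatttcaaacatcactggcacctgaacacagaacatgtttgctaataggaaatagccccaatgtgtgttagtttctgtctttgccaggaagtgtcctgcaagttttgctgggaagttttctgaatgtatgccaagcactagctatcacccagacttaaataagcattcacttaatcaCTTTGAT
Reg3b: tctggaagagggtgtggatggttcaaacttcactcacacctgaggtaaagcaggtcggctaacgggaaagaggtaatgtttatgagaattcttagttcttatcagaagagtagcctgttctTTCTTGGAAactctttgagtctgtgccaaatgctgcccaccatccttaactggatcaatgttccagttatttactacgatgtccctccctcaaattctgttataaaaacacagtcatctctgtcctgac
Reg3g: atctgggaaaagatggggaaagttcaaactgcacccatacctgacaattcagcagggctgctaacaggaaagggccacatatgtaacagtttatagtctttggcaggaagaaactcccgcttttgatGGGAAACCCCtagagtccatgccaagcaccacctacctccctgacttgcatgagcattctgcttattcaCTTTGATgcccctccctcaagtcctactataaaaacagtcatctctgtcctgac
Reg4: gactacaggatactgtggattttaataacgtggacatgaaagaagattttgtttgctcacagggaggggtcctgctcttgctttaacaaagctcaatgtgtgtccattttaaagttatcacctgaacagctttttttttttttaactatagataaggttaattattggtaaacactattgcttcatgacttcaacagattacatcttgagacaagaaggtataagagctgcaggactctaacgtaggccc
Reg3a and Reg3g each held the TCF/LEF motif CTTTGAT, starting 7 and 54 bases before the start, and 3.73% of 32851 mouse promoters of the same 300 bases (250 before and 50 after the start) held it on either strand. Reg3b held the STAT motif TTCNNNGAA as TTCTTGGAA, 129 bases before the start, against 8.30% of promoters. Reg3g also held a match to the NF-kB consensus, GGGAAACCCC, 123 bases before the start, against 8.46%. Pigr held a STAT match, TTCCTGGAA, 39 bases after its start, outside the windows printed. None of the 3 motifs was found in the windows of Reg1, Reg4, Lcn2, Saa1 and Saa2. A match describes letters only, and binding was not measured. Whether the motifs bear on the levels of these genes was not tested. The windows of Reg3b and Reg3g were 68.4% identical, and their coding sequences 76.0%. Reg3a shared 73.9% of coding bases with Reg3b and 72.8% with Reg3g, whereas Reg4 shared 54.9% with Reg1. No 50-base stretch of Reg3a, Reg3b, Reg3g or Reg4 occurred in another gene's transcripts in GENCODE M21. In Reg1 3.74% of stretches did, in Pigr 1.74%, in Saa1 14.8% and in Saa2 9.12%, so reads of Saa1 and Saa2 are the least certain to be placed.

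In MIN organoids Pigr was the most abundant of these transcripts by far, Reg4, Reg1, Reg3a and Reg3g were of middle to high abundance, Reg3b was lower, and Lcn2, Saa1 and Saa2 were at or near the limit of detection. Levels are CPM (counts of a gene scaled to a library of standard size) after TMM normalization over the 9 samples, which held 30881206 to 48412477 counts. At this depth 3 counts, taken as the floor of detection, correspond to 0.0641 to 0.100 CPM. Per kilobase of transcript, the scale on which genes can be compared, Pigr reached 626.7 CPM per kb in MIN and stood at rank 127 of 22634 genes. Reg4 followed at 109.6 CPM per kb and rank 611, Reg1 at 77.6 and rank 899, and Reg3a at 47.4 and rank 1568. Reg3g stood at 36.6 CPM per kb and rank 2043, Reg3b at 12.2 and rank 5273, and Lcn2 at 0.299 and rank 11828. Pigr was above Reg4 in all MIN samples, and Reg1 was above Reg3a within each culture. Reg1 was above Reg4 in replicate 2 and below it in the other two, and Reg3g was above Reg3a in replicate 3 and below it in the other two, so those orders differed between cultures. Reg3b was below Reg3g in all 3.

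**Figure D1:**
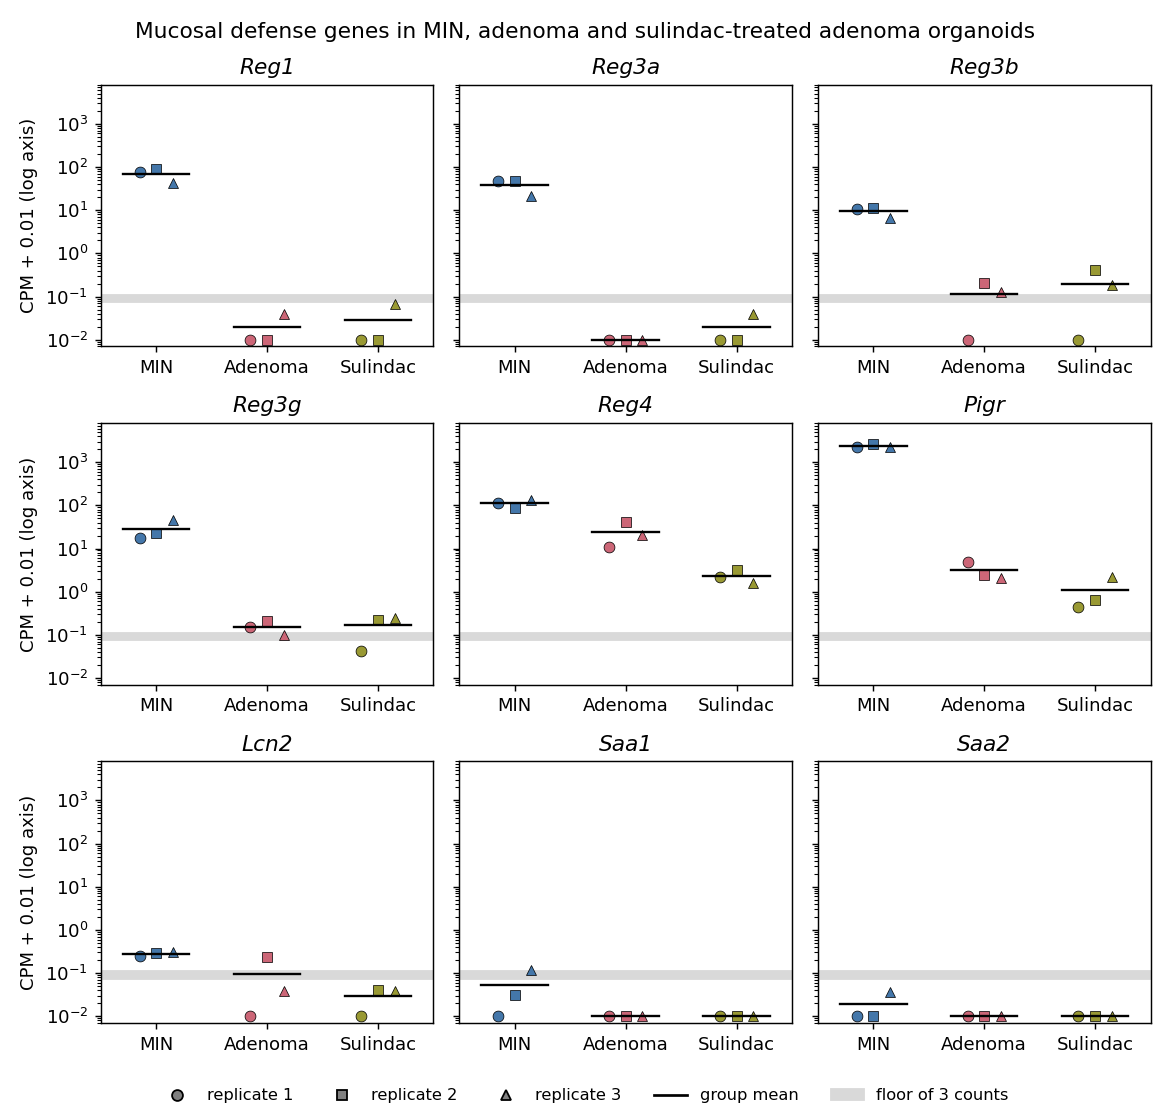
Level of each gene in every sample, as CPM plus a small constant on a log scale, by group, with single cultures as points, group means as lines (n = 3) and the floor of 3 counts as a grey band. The MIN points of Reg1, Reg3a, Reg3b, Reg3g and Pigr lie far above all Adenoma and Sulindac points, the Reg4 groups lie in steps, and Lcn2, Saa1 and Saa2 lie at or near 0.

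The first comparison, Adenoma against MIN, asks how epithelium of the polyp differs from normal-looking epithelium of the same mutant mice. Pigr and all 5 Reg genes were lower in adenoma organoids, by 4.64-fold for Reg4 and by 89-fold or more for the others. Pigr, Reg1, Reg3a and Reg3g, abundant in MIN, were down to a small fraction of that level or to no reads, while Reg4 kept a clear level. In edgeR's quasi-likelihood test, with p-values adjusted by the Benjamini-Hochberg method over 13744 genes and an FDR threshold of 1%, 6 of the 9 genes passed as lower and 0 as higher. Lcn2, Saa1 and Saa2 had too few reads to be tested. Of all genes tested 20.1% were lower and 18.5% higher. Reg1, Reg3a, Reg3b and Reg3g passed the low-count filter only through their MIN reads, so the count by itself is no evidence about the genes as a group. Reg4 and Pigr had at least 10 reads in every sample. In bulk RNA, fewer cells of a type and less RNA per cell cannot be told apart.

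Pigr measured 2243, 2701 and 2291 CPM in the MIN samples and 4.83, 2.38 and 2.08 CPM in the adenoma samples, that is 84107 to 126402 reads against 72 to 172. Every MIN culture lay far above every adenoma culture. The group means were 2412 ± 251.8 and 3.10 ± 1.51 CPM (SD, n = 3). The log2 fold change was -9.60 ± 0.38 (SE), a 776-fold difference, with a 95% interval from -10.47 to -8.73 and an adjusted p of 2.66e-07 by edgeR's test. By size of fall Pigr ranked 155 among the 13744 genes tested.

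Of the cluster genes, Reg1 (regenerating islet-derived 1, first known from regenerating pancreas) measured 77.1, 91.8 and 41.7 CPM in MIN. In adenoma it had 0, 0 and 1 reads, where MIN had 3170, 4293 and 1529. Its summed level was 7649 times higher in MIN (exact 95% interval 1370 to 302000, counting error only), and the adjusted p was 7.06e-07 by edgeR's test. It still passed without Adenoma replicate 3, which held its only read (adjusted p = 0.000277, edgeR).
Reg3a, a further lectin of the family, had 2004, 2205 and 788 reads in MIN, or 48.8, 47.1 and 21.5 CPM, and none in the 3 adenoma samples. Against the floor of 3 counts per library this was at least 460.5-fold lower, with an adjusted p of 1.75e-05 by edgeR's test.

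Reg3b and Reg3g, the best known antibacterial lectins of the family, kept a few reads in adenoma. Reg3b had 449, 514 and 245 reads in MIN and 0, 7 and 4 in adenoma, with means of 9.53 ± 2.47 and 0.104 ± 0.0983 CPM (SD, n = 3). It fell by 6.47 on the log2 scale (SE 0.557, adjusted p = 2.13e-05 by edgeR's test), and by 7.30 without Adenoma replicate 2. Reg3g had 710, 1058 and 1646 reads in MIN and 5, 7 and 3 in adenoma, with means of 28.2 ± 14.6 and 0.141 ± 0.0544 CPM (SD, n = 3). It fell by 7.61 on the log2 scale (SE 0.51, adjusted p = 5.06e-06 by edgeR's test). Groups did not overlap for either gene, and no adenoma library held more than 7 reads of either.

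Reg4 behaved differently from the cluster genes in size. It measured 113.9, 88.8 and 133.1 CPM in MIN and 10.9, 40.6 and 20.8 CPM in adenoma. The groups did not overlap, and the adenoma cultures spread widely, with replicate 2 the highest. The means were 111.9 ± 22.2 and 24.1 ± 15.1 CPM (SD, n = 3), and the log2 fold change was -2.21 ± 0.409 (SE), with a 95% interval from -3.15 to -1.28 and an adjusted p of 0.00189 by edgeR's test. This call was the least stable of the 6. It was lost without Adenoma replicate 3 (log2 -2.12, adjusted p = 0.0189, edgeR) and without a low-count filter (adjusted p = 0.0142), and the change was -2.82 without Adenoma replicate 2. In adenoma Reg4 stood at 23.6 CPM per kb, rank 2962, while Pigr stood at 0.804 CPM per kb and rank 10736. Reg4 thus made up 38.2%, 30.1% and 48.4% of the summed CPM per kb of the 5 Reg genes in the MIN samples and 98.3%, 98.7% and 98.6% in the adenoma samples.

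Lcn2, a secreted protein that withholds iron from bacteria by binding their siderophores, had 10, 13 and 11 reads in MIN and 0, 8 and 1 in adenoma. Adenoma replicate 2 was near the MIN samples and the other two near 0. The gene was not tested, and in the unfiltered fit it was at -1.65 on the log2 scale (adjusted p = 0.125, edgeR). Without Adenoma replicate 2 it passed the filter and the test (log2 -3.98, adjusted p = 0.00715, edgeR). Saa1, an acute-phase apolipoprotein that gut epithelium makes on contact with bacteria, had 0, 1 and 4 reads in MIN and none in adenoma or sulindac. Its near copy Saa2, with 95.1% identical coding bases, had 1 read in all 9 samples. A difference in either gene was not detectable at this depth.

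**Figure D2:**
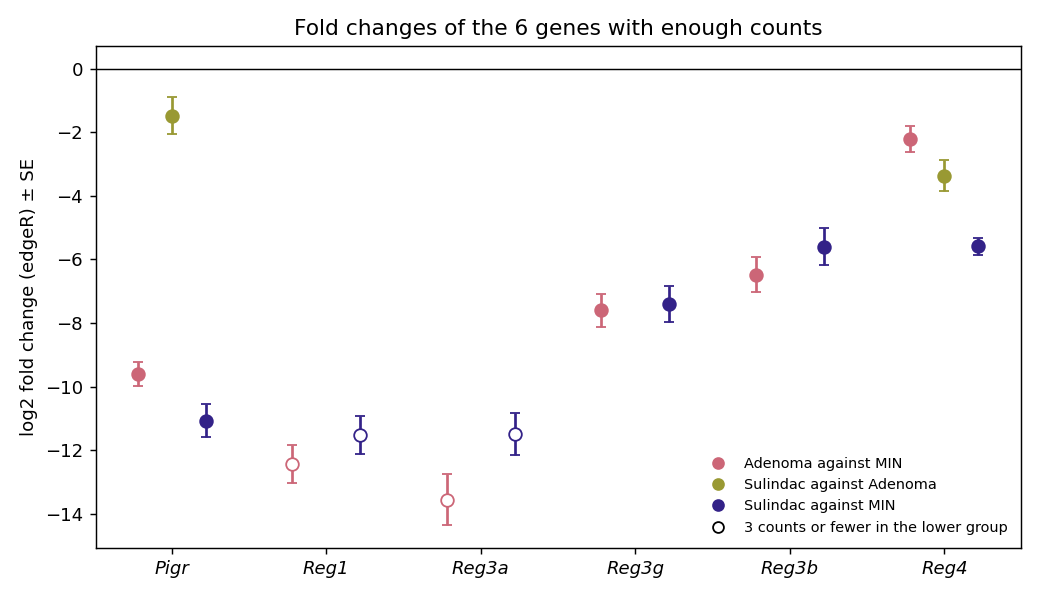
Log2 fold change of each tested gene in the 3 comparisons, with its SE from edgeR's fit, and open circles where the lower group held 3 counts or fewer. All 6 genes lie below 0 against MIN, with Reg4 nearest to 0 at -2.21 and -5.59, and Reg4 and Pigr alone have a point for Sulindac against Adenoma; open circles depend on the prior count of the fit and are no estimates of size.

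The second comparison, Sulindac against Adenoma, asks what the drug changed in the polyp organoids. Reg4 was lower with sulindac by 10.3-fold, and Pigr, already low in adenoma, did not pass the test. The other 7 genes had too few reads in both groups to be tested, so a rise or fall in them was not detectable at this depth. By edgeR's quasi-likelihood test 1 of the 9 genes was lower and 0 were higher, where 9.10% of the 12962 genes tested were lower and 8.32% higher. This comparison uses the same adenoma samples as the first.

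Reg4 measured 2.23, 3.21 and 1.54 CPM with sulindac, below each of the untreated values of 10.9, 40.6 and 20.8 CPM. The log2 fold change was -3.37 ± 0.485 (SE), with a 95% interval from -4.48 to -2.26 and an adjusted p of 0.00154 by edgeR's test. It was -2.75 without Adenoma replicate 2, and the call was lost without Sulindac replicate 3 (log2 -3.14, adjusted p = 0.0104, edgeR) and without a low-count filter (adjusted p = 0.0118). Per length Reg4 moved from 23.6 to 2.28 CPM per kb, or from rank 2962 to rank 9312. It remained the most abundant Reg gene in the sulindac samples, with 98.1%, 80.0% and 70.7% of the summed CPM per kb.

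Pigr measured 0.433, 0.642 and 2.21 CPM with sulindac. Sulindac replicate 3 reached the level of the untreated replicates 2 and 3 (2.38 and 2.08 CPM), and the groups overlapped. The log2 fold change was -1.47 ± 0.586 (SE), with a 95% interval from -2.81 to -0.14 and an adjusted p of 0.0839 by edgeR's test. It ran from -2.51 without Sulindac replicate 3 (adjusted p = 0.0142) to -0.99 without Adenoma replicate 1. Reg3b had 0, 13 and 6 reads with sulindac, Reg3g 1, 7 and 8, Reg1 0, 0 and 2, and Reg3a 0, 0 and 1. Each of these overlapped the untreated samples. Lcn2 had 0, 1 and 1 reads, and its summed level was 4.12 times higher in untreated adenoma, with an exact 95% interval (counting error only) from 0.853 to 39.2 that includes no difference. In replicate 1 of both groups Reg3b was at 0.

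The third comparison, Sulindac against MIN, covers the whole distance between treated polyp and normal-looking epithelium. The genes Reg1, Reg3a, Reg3b, Reg3g, Reg4 and Pigr, 6 of 9, were lower with sulindac and 0 were higher by edgeR's test, where 26.8% of 13551 genes tested were lower and 23.0% higher. This comparison draws on the MIN samples of the first and the sulindac samples of the second. Pigr was at -11.07 ± 0.512 (SE) on the log2 scale, or 2150-fold lower (adjusted p = 7.59e-07), and by more without Sulindac replicate 3 (-12.12). Reg4 was at -5.59 ± 0.261 (SE), or 48.2-fold lower (adjusted p = 7.99e-07 by edgeR's test). Only Reg4 and Pigr had enough reads to be followed over all 3 groups, and of these Reg4 alone also passed the test between sulindac and adenoma. Reg3b was at -5.60 ± 0.586 (SE; -6.63 without Sulindac replicate 2) and Reg3g at -7.40 ± 0.559 (SE), with adjusted p of 7.2e-05 and 1.16e-05 by edgeR's test. Summed levels were 3503 times higher in MIN for Reg1 (exact 95% interval 969 to 28900) and 3893 times for Reg3a (698 to 154000), counting error only, with adjusted p of 1.47e-06 and 2.65e-06 by edgeR's test. All of their sulindac reads came from replicate 3, and without it both genes still passed (adjusted p = 0.000148 and 0.00026). That library also held the most reads of some other genes that were high in MIN, but not of all. The enterocyte gene Alpi had 9, 6 and 5 reads in the sulindac samples, and the Paneth cell gene Lyz1 had 437, 527 and 321. Among those highest in replicate 3, Olfm4, a stem cell marker, had 2, 1 and 43 reads. The enterocyte genes Apoa4 and Fabp1 had 2, 2 and 39 and 6, 3 and 21, beside 13, 21 and 76 of Pigr. Their part in the Pigr, Reg1 and Reg3a values was not tested. Lcn2 was not tested here either, and its summed level was 13.2 times higher in MIN (exact 95% interval 3.40 to 114, counting error only). It passed as lower in the fit with no low-count filter (log2 -3.54, adjusted p = 0.00204, edgeR).

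The 3 MIN cultures did not hold the Reg genes in equal proportion. Reg1, Reg3a and Reg3b were lowest in replicate 3, at 0.594, 0.549 and 0.700 of their group means, and Reg3g was highest there, at 1.59 of its mean. Highest and lowest MIN cultures differed 2.60-fold for Reg3g, 2.27-fold for Reg3a, 2.2-fold for Reg1, 1.65-fold for Reg3b, 1.5-fold for Reg4 and 1.20-fold for Pigr. Replicate 3 thus stood lowest for 3 genes of the cluster and highest for Reg3g, while between replicates 1 and 2 Reg1 and Reg3g were both higher in replicate 2. Pigr had the narrowest range of the 6 genes. Of 8 enterocyte markers 7 were also lowest in MIN replicate 3, with Sis the exception, and 5 of 8 enteroendocrine markers (Chga, Chgb, Neurod1, Cck and Tph1) were highest there, with Neurog3 lowest and Gip and Pyy highest in replicate 1. Of 8 Paneth cell markers 0 were lowest and 4 highest in that culture, and of 8 goblet cell markers 3 were lowest and 3 highest. With 3 cultures these orders carry no test, and the part of cell makeup in them was not tested.

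**Figure D3:**
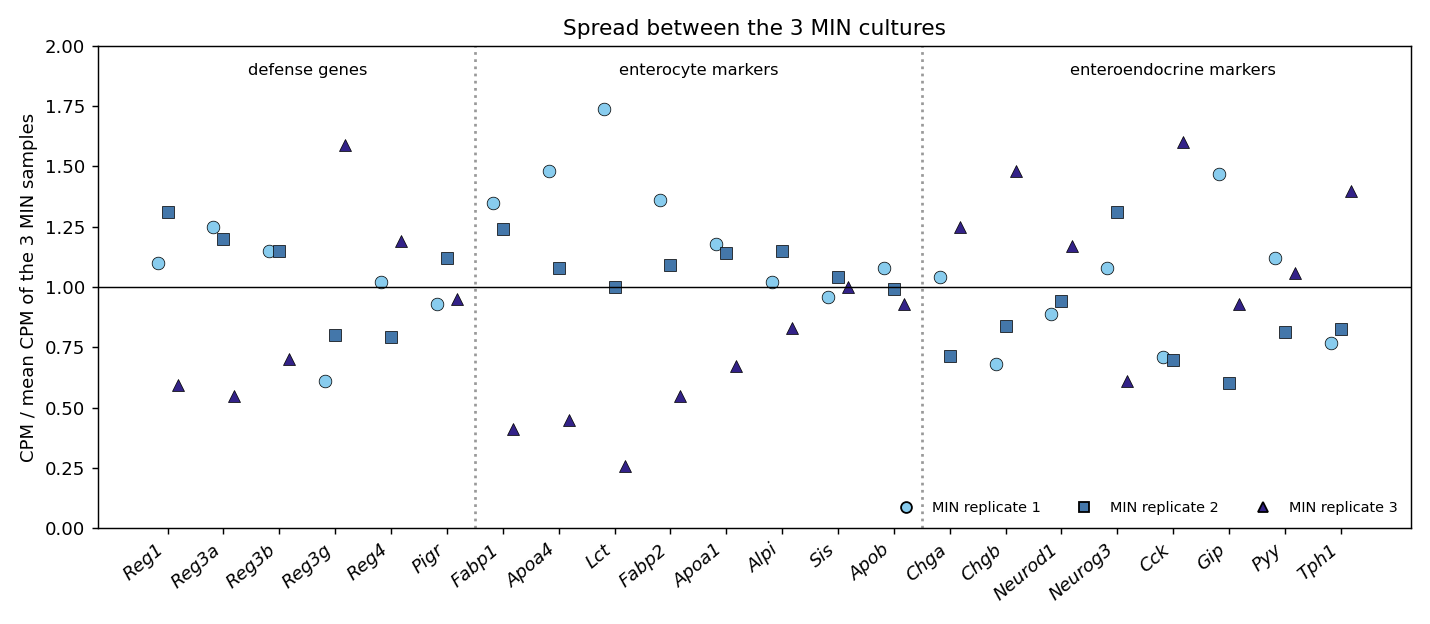
Level of the Reg genes, Pigr and the enterocyte and enteroendocrine markers in each MIN culture, as CPM over the mean CPM of the 3 cultures (the line at 1). Reg1, Reg3a and Reg3b are lowest in replicate 3, at 0.549 to 0.700, and Reg3g is highest there, at 1.59, while 7 of 8 enterocyte markers are lowest and 5 of 8 enteroendocrine markers highest in that culture.

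Most markers of the mature cell types that make these proteins were also lower in adenoma than in MIN. Of all genes tested 20.1% were lower and 18.5% higher. Some markers, Fabp1 and Chgb among them, passed the low-count filter only through MIN, so the counts of lower markers are by themselves no evidence. Against MIN all 8 enterocyte markers, 8 goblet cell markers and 8 enteroendocrine markers were lower in adenoma, with Fabp1 (fatty acid transport) at -12.66, Muc2 (the mucin of gut mucus) at -7.52 and Chgb (a granule protein) at -11.56 on the log2 scale by edgeR's test. Of 8 Paneth cell markers 6 were lower, among them Lyz1 (lysozyme) at -6.82 and the alpha-defensin Defa24 at -7.99, and 2 were higher, Mmp7 (the protease that activates defensins) at 1.91 and Pla2g2a (a phospholipase that kills bacteria) at 1.58. Summed marker levels ran from 15420 to 18380 CPM in MIN, 963.8 to 1428 in adenoma and 187.2 to 281.9 in sulindac for Paneth cells. They ran from 3101 to 4972, 8.69 to 13.0 and 11.9 to 19.6 CPM for enterocytes, from 1893 to 2128, 129.6 to 235.7 and 60.5 to 121.3 for goblet cells, and from 295.9 to 544.4, 0.636 to 2.35 and 0.669 to 1.13 for enteroendocrine cells. General epithelial markers stayed high in all groups (3026 to 6586 CPM over all samples), with 4 of 6 lower in adenoma. In the fit blocked by replicate number Epcam also passed as lower (adjusted p = 0.00654, edgeR) and Krt18 as higher (0.00271). Of 5 stem cell markers 2 were higher and 2 lower in adenoma. Between sulindac and adenoma, 6 of 7 Paneth markers and 1 of 7 goblet markers tested were lower, where 9.10% of all genes tested were lower. The part of cell makeup in the fall of the Reg genes and Pigr was not tested.

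Markers of cells outside the epithelium were low. Leukocyte markers summed to 4.87 to 7.27 CPM in MIN, 9.05 to 17.5 in adenoma and 3.24 to 4.73 in sulindac, with 9 of 10 in the table, and the pan-leukocyte gene Ptprc had 0 or 1 read in MIN, 4 to 8 in adenoma and 0 in sulindac. In adenoma most of that sum was Cd68, a lysosomal protein that is not particular to leukocytes, with 66, 53 and 83 reads in MIN, 369, 284 and 560 in adenoma and 117, 93 and 110 in sulindac. In MIN most of the leukocyte sum was Itgam, which went the other way. It had 159, 155 and 148 reads in MIN, 13, 7 and 4 in adenoma and 5, 0 and 0 in sulindac. Itgam was lower in adenoma than in MIN (log2 -4.025, adjusted p = 3.7e-05, edgeR). Pancreatic acinar markers, a check because Reg1 is also a pancreatic gene, summed to 0.708 to 1.00 CPM in MIN, with Cpa1 and Cela2a at 0 in all samples and Ctrb1 at 36, 45 and 23 reads. Of the other Reg family members, Reg2 had 2 reads in MIN and Reg3d 24, and neither had any in adenoma or sulindac.

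Most other defense genes of a list of 30 were also lower in adenoma where they had enough reads. The list is called secreted defense, although Nos2, Duox2, Duoxa2 and Muc13 on it code for proteins of the cell or its membranes. Against MIN 18 of the 30 were tested, 16 were lower, 1 higher and 1 not called. The median log2 fold change was -6.65, against -0.01 for all genes, of which 20.1% were lower and 18.5% higher. Some of the 18 passed the low-count filter only through MIN, Dmbt1, Mptx2 and Zg16 among them, so the count and the median are no support for the list. With at least 10 counts required in every sample 7 were lower. Dmbt1, a scavenger receptor that clumps bacteria, had 18021, 34078 and 26856 reads in MIN and 4, 3 and 4 in adenoma (log2 -12.53). Mptx2, a secreted pentraxin, had 305, 692 and 273 reads against none (at least 116.3-fold lower), and Zg16, a mucus lectin that binds gram-positive bacteria, had 2031, 1846 and 930 against 1, 0 and 0. Duox2, an oxidase that releases hydrogen peroxide at the surface, was at -7.76. The gene that passed as higher was Pla2g2a, at 1.58 (adjusted p = 0.00129, edgeR). Slpi, also higher in every adenoma sample than in MIN, was not tested, and 2 listed genes were higher with no filter, in the fit of all 9 samples, and without MIN replicate 3, Adenoma replicate 1 or Adenoma replicate 2. Pglyrp1, a peptidoglycan binder, was at 0.15 (adjusted p = 0.573). The list shares genes with the Paneth and goblet cell markers, so these counts are not independent.

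With sulindac, 5 of the 10 listed genes tested were lower than in untreated adenoma, 0 were higher and 5 were not called. Their median log2 fold change was -1.40, against -0.01 for all genes, of which 9.10% were lower and 8.32% higher. Without Sulindac replicate 2 or Sulindac replicate 3, 3 listed genes were lower. Pla2g2a, the gene that had risen in adenoma, fell by 5.81 on the log2 scale (adjusted p = 8.72e-05 by edgeR's test). Ang4, a Paneth cell ribonuclease, fell by 2.99 (0.00285), Itln1, a lectin for microbial glycans, by 2.76 (0.000485), Lypd8, which coats flagellated bacteria, by 1.99 (0.000894) and Pglyrp1 by 1.15 (0.00235), with the adjusted p of edgeR's test in parentheses. Reg4 thus fell beside 5 genes of the secreted defense list with enough reads to be tested. Against MIN, 18 of 19 were lower with sulindac and 1 was higher (median -6.73, against -0.03 for all genes, of which 26.8% were lower and 23.0% higher). The same limit holds, since some of these genes passed the filter only through MIN, and with at least 10 counts in every sample 8 were lower and 0 higher. Leaving out any 1 MIN sample or Sulindac replicate 2 gave 2 higher genes. The higher gene with all samples was Slpi, a secreted inhibitor of leukocyte proteases, with 1, 1 and 3 reads in MIN, 42, 7 and 40 in adenoma and 116, 67 and 129 with sulindac. It was at 6.20 on the log2 scale against MIN (adjusted p = 1.48e-05, edgeR) and at 1.95 against untreated adenoma (adjusted p = 0.0239).

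Of the genes of the pathways upstream, some were higher, some lower and many not called. Of 15 genes of STAT3 signalling, receptors, transducers and targets together, 14 were tested in adenoma against MIN, 5 were higher, 2 lower and 7 not called (median 0.06, against -0.01 for all genes, of which 18.5% were higher and 20.1% lower). Without MIN replicate 1 or MIN replicate 2, 3 were higher and 1 lower, and without Adenoma replicate 2, 1 was lower. The higher ones were Fut2 (a fucosyltransferase induced by IL-22) at 4.17, Il6st (the shared subunit of IL-6 family receptors) at 1.94, Il11ra1 at 1.28, Pim1 (a kinase and STAT3 target) at 1.16 and Socs3 (the feedback inhibitor of STAT3) at 1.11, with adjusted p from 2.31e-05 to 0.00409 by edgeR's test. Both subunits of the IL-22 receptor were lower, Il22ra1 at -0.95 (adjusted p = 0.00282) and Il10rb at -0.92 (adjusted p = 0.000187). Of the 4 known targets on the list, Fut2, Pim1 and Socs3 are among the higher genes, and Bcl3 was at -0.62, below MIN in every adenoma sample (adjusted p = 0.0358, edgeR). Between sulindac and adenoma Il11ra1 (-1.25) and Socs3 (-0.90) were lower and 12 of 14 were not called, where 9.10% of all genes tested were lower. Without Sulindac replicate 1 or Sulindac replicate 3, 0 were lower there, and 1 without Adenoma replicate 2 or Sulindac replicate 2. Against MIN, the sulindac samples had higher Fut2 (4.41), Il6ra (2.43), Pim1 (1.54), Il6st (1.43) and Stat3 (0.43), out of 14 tested. Bcl3 (-1.02), Il10rb (-0.94) and Il22ra1 (-0.76) were lower, with 1 lower without Sulindac replicate 3. Of all genes tested 23.0% were higher and 26.8% lower in this comparison.

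Of 14 genes of IL-17 and NF-kB signalling, all tested, 2 were higher in adenoma than in MIN, 2 lower and 10 not called. Their median log2 fold change was -0.30, against -0.01 for all genes, of which 18.5% were higher and 20.1% lower. The count of higher genes on the list was 3 without MIN replicate 3 and 1 without any other sample. That of lower genes on the list was 1 without Adenoma replicate 2. The NF-kB subunit Rela was at 1.03 and the IL-17C receptor subunit Il17re at 1.27, while the receptor subunit Il17rc was at -1.50 and Nfkbiz, a cofactor that IL-17 induces, at -1.17 on the log2 scale by edgeR's test. MIN and adenoma samples of the same number were weakly correlated around their group means (0.113 to 0.192 across genes). In the fit blocked by replicate number, Il17re lost its call (adjusted p = 0.0114, edgeR), and Nfkb2 passed as higher (0.00788) and Nfkbia as lower (0.00535). With sulindac, Il17ra (0.89), Il17rc (1.07) and Il17re (1.25) were higher than in untreated adenoma, and Traf3ip2 (-0.51), the adaptor of those receptors, and Nfkb2 (-0.47) were lower. All 3 receptor subunits on the list thus rose with sulindac, where 8.32% of all genes tested were higher and 9.10% lower. Leaving out 1 sample gave 3 to 4 higher genes on the list, and 0 lower ones except without Adenoma replicate 3, where 3 were lower. Against MIN the sulindac samples had higher Il17re (2.52), Rela (0.90) and Il17ra (0.69) and lower Nfkb1 (-0.95), and 10 of 14 were not called. Without MIN replicate 1, 3 on the list were lower. Of all genes tested 23.0% were higher and 26.8% lower against MIN.

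Receptors and partners of the proteins themselves were few. Slc22a17, a receptor for Lcn2, had 33, 16 and 56 reads in MIN, 0, 0 and 1 in adenoma and none with sulindac, and was lower in adenoma (adjusted p = 0.00096, edgeR). Extl3, a receptor proposed for Reg proteins, was lower with sulindac than in adenoma (-0.61, adjusted p = 0.0094) or MIN (-0.42, adjusted p = 0.00685). Mal2, a membrane protein of the transcytosis route, was higher with sulindac than in adenoma (0.66, adjusted p = 0.00178). Extl3 was the only gene of this list lower between sulindac and adenoma, and that count of 1 held in 8 of 14 alternatives. It ranged from 0 to 1 when a sample was left out. The count of 1 higher gene held in 12 of 14. Against MIN the count of lower genes with sulindac, 2 with all samples, ranged from 1 to 2 and held in 8 of 14. The joining chain that links polymeric IgA, Igj in the table, had 1 to 5 reads in each sample, close to the floor.

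**Figure D4:**
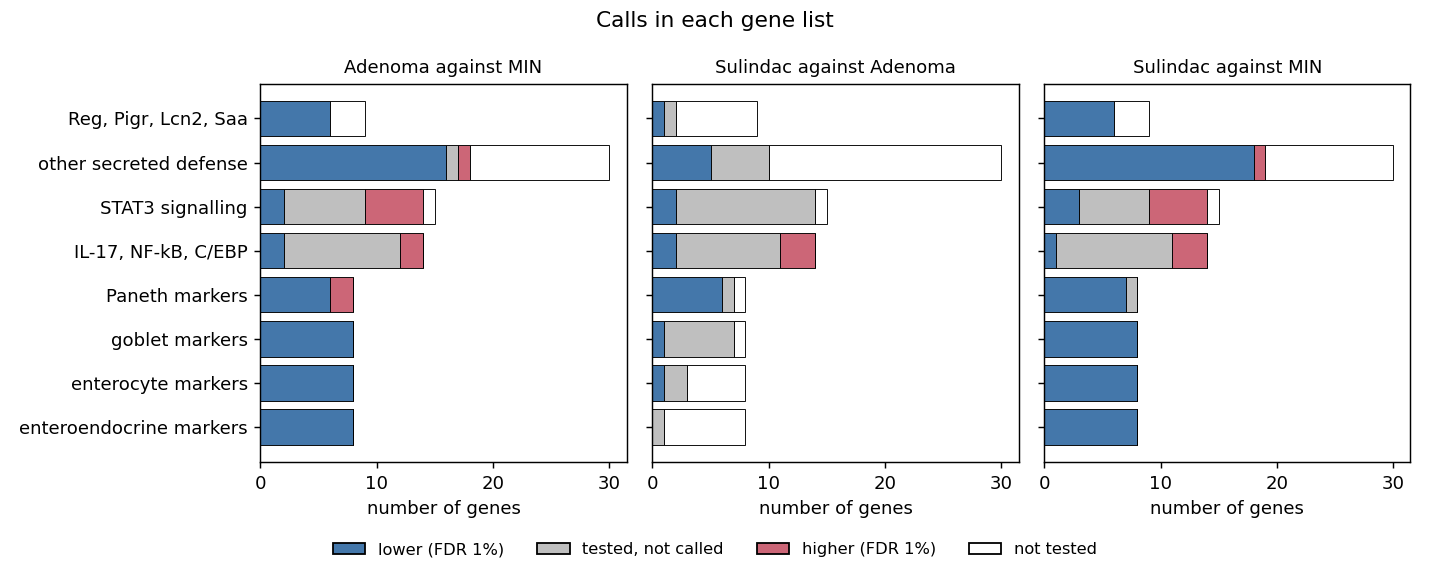
Number of genes that were higher, lower, not called or not tested in each list, 1 panel a comparison (edgeR, FDR 1%). On the secreted defense list 16 of 18 genes were lower in adenoma than in MIN, some of them tested only through their MIN reads. In that comparison 7 of 14 STAT3 genes and 10 of 14 IL-17 and NF-kB genes were not called. Of all genes tested there 20.1% were lower and 18.5% higher.

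The genes whose pattern over the 9 samples was most like each member were found by Pearson's r of log2(CPM + 0.5), a description that the large gap between MIN and the other groups dominates. For Pigr they were Cldn2 (0.998), a pore-forming tight junction protein, 9830147E19Rik and Bcl11a. For Reg1 they were Gimap5, Ugt2a3 and Kcnb2, for Reg3a 2010106E10Rik, Ugt2b5 and Gimap5, and for Reg3b Slc22a3, G630090E17Rik and Ggt1. For Reg3g they were Scg5 (0.9986), a chaperone of neuroendocrine granules, Mkrn3 and Nptx2. Reg4 was most like Ang4 (0.9948), followed by 1810046K07Rik (0.9942) and Fam13a (0.9894). The genes chosen for Reg1 and Reg3a were, like Reg1 and Reg3a, lowest among the MIN cultures in replicate 3. Ugt2a3 and Ugt2b5 were at 6.43 and 16.43 CPM there, against 9.90 to 10.15 and 35.35 to 37.16 CPM in the others. They were chosen for likeness over these same samples, so the shared order is no separate result.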

How the data were processed

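RNA-seq was performed on 3 MIN, 3 Adenoma and 3 Sulindac organoid samples of mouse. The authors deposited 1 table of raw counts, whole numbers of reads per gene symbol with no normalization. The submitters' processing notes name Bowtie2 2.2.4, RSEM and mm9, and the annotation is not given in the sources used here. Multi-mapped reads can be split between near copies by such counting. For MIN replicate 1 the table gives 2 runs and their sum (equal in all 23955 rows), and the sum was used as 1 sample. All columns were used. In 27 rows the symbol had become a date, and these were kept but not named.

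The deposited counts were filtered with filterByExpr, normalized by TMM and compared by the quasi-likelihood test of edgeR 4.0.16 (glmQLFit with robust estimation) in R 4.3.3, with only the groups compared in the fit and Benjamini-Hochberg adjustment at an FDR of 1%, the threshold of the study's methods. RSEM's own comparison was not rerun. The script was tested on simulated counts. Levels per kb used the longest protein-coding transcript of GENCODE M21. Intervals of ratios cover counting error only. RefSeq promoters were matched by symbol for 9 of 9 genes.

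The genes, the lists and the markers were chosen with earlier results of these data known. Named beside the 9 genes are the up to 4 genes of each list with the largest change past the threshold in a comparison, all STAT3, IL-17 and receptor genes past it, and the 3 most alike genes for each member. Of the marker lists only some are described gene by gene, and other values were picked after they were seen (among them Sis, Ptprc, Cd68, Cpa1, Cela2a, Ctrb1, Igj, Reg2, Reg3d, Pglyrp1, S100a9, Slpi in adenoma).

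MIN and Adenoma samples of the same number were weakly correlated around their group means, with correlations across genes of 0.113 to 0.192. The mean of -0.07 for other pairs adds nothing, since deviations from a group mean cancel out within the group. The reported tests did not pair samples, and the replicate number entered only as a block in an alternative fit. The choice of this block rests on the data, since no label names a shared mouse. Same-number pairs ran from -0.074 to 0.253 for Sulindac against Adenoma and from -0.03 to 0.396 for Sulindac against MIN. Alternatives were RLE factors, library size alone, no filter, at least 10 counts in every sample, 1 fit of all 9 samples, the replicate block, DESeq2 1.42.0, an FDR of 5% and leaving out each sample.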

Additional observations from a re-analysis of the deposited data

How the results depend on the processing

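No alternative turned the direction of a call. The requirement of at least 10 counts in every sample removes genes that are near 0 in a group, and with it 2 of the 9 genes were lower in Adenoma against MIN and 2 in Sulindac against MIN (6 and 6 in the reported analysis). Leaving out 1 sample gave 5 to 7 and 6 to 7 lower genes there, 5 without Adenoma replicate 3 (Reg4 lost) and 7 where Lcn2 passed. For Sulindac against Adenoma the count of 1 became 0 with no filter and ranged from 0 to 1 when a sample was left out, 0 without Sulindac replicate 3. Over all genes of that comparison (1078 higher and 1179 lower), library size alone gave 603 higher and 1983 lower, DESeq2 gave 1778 higher, an FDR of 5% gave 2034 higher and 2374 lower, and leaving out a sample gave 423 to 1403 higher and 386 to 1488 lower. Library size alone moved the median change over all genes (log2) from -0.01 to 0.12, -0.01 to -0.18 and -0.03 to -0.05 in the 3 comparisons, and the share of called genes that were higher from 48% to 57.7%, 47.8% to 23.3% and 46.2% to 44.4%. The Reg genes and Pigr kept their direction under it.

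With the replicate number as a block, 6, 1 and 6 of the 9 genes were lower in the 3 comparisons, as without it, and 872 genes were higher and 1061 lower between sulindac and adenoma. No label ties samples of the same number in any comparison. In sulindac against adenoma the block moved the secreted defense list to 8 lower and 1 higher. Lyz1, Tff3 and Muc13 were gained as lower and Slpi as higher. Of the lower signalling genes in that comparison Socs3, Traf3ip2 and Nfkb2 lost their calls, and Nfkb1 gained one.

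Depth limits what can be said of Lcn2, Saa1 and Saa2 in every group, and of Reg1, Reg3a, Reg3b and Reg3g between adenoma and sulindac. Each group has 3 cultures, and no mouse is named for any of them.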

Other observations

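S100a8 and Slpi, defense genes outside the Reg and Pigr group, had their highest mean levels in the sulindac samples. S100a8, a subunit of the metal-binding protein calprotectin, had no reads in MIN, 0, 0 and 5 in adenoma and 12, 5 and 13 with sulindac, where it was at least 4.25-fold higher than in MIN against a floor of 3 counts per library. The other subunit, S100a9, had 3, 2 and 0 reads in MIN, 4, 2 and 4 in adenoma and 2, 5 and 3 with sulindac, and its groups overlapped. Slpi rose over MIN by the test given above, and it had 5 reads in all MIN samples against 312 in all sulindac samples. Lbp, which binds bacterial lipopolysaccharide, had its highest mean in adenoma. It had 0, 3 and 0 reads in MIN, 2, 19 and 9 in adenoma and 1, 2 and 5 with sulindac, and its groups overlapped. S100a8, S100a9 and Lbp were not tested.

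The other serum amyloid A genes also had few reads. Saa3 had 2, 6 and 4 reads in MIN, 1, 3 and 1 in adenoma and none with sulindac, and Saa4 had 4, 3 and 4, 4, 6 and 3, and 9, 3 and 6 reads in the same order of groups.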
